A study of Mus musculus with 6 samples.

Results

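The genes described here are 5 caspases (Casp1, Casp2, Casp6, Casp8 and Casp9) and 3 proteins that assemble or restrain them (Fadd, Apaf1 and Cflar), taken by symbol from a table of 26332 genes, and all 8 were found. They were read in RNA-seq libraries of thymocytes at the double negative 3 (DN3) stage, when the β chain of the T-cell receptor is assembled. Wild type mice (WT, n = 4, WT 4 male and the others female) were compared with mice carrying a Tcf7 knock-out (KO, n = 2, KO 1 male and KO 2 female), all on a C57BL/6 background, with 1 mouse per library. Tcf7 encodes the transcription factor TCF-1, whose part in DN3 cells the series set out to examine. The sources used here state neither the age of the mice nor which part of Tcf7 was removed. Cells were sorted as CD25 positive and negative for CD44, CD3, TCRβ, CD8, NK1.1 and the CD1d tetramer.

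Caspases are proteases made as inactive precursors and switched on by being brought together in a complex. In the extrinsic pathway a ligated death receptor such as Fas recruits the adaptor Fadd, which gathers Casp8, and Cflar (cFLIP), a Casp8 relative without protease activity, sets how much of it is activated. In the intrinsic pathway cytochrome c released from mitochondria makes Apaf1 assemble into the apoptosome, which activates Casp9, and both routes end in executioner caspases. Thymocytes that fail to signal through the pre-T-cell receptor or the mature receptor die by apoptosis, while Casp1 belongs to the inflammasome, which matures interleukins and triggers a lytic death.

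Casp8 and Cflar are neighbours on chromosome 1, where Cflar (Entrez 12633) spans 58711311 to 58758884 and Casp8 (Entrez 12370) spans 58795233 to 58847503 in GRCm38.p6, with a gap of 36.3 kb. Both lie on the plus strand, and both passed the genotype test described below with higher levels in KO, so the 250 bases before a transcript start of each are shown. They are RefSeq's, and each window precedes a start inside the gene's span: the Casp8 window lies wholly within it, and the Cflar window runs across its first base. Capitals mark a match to TGTGGT, the core letters bound by RUNX factors, which act in thymocytes. The Cflar window is chr1:58711241-58711490 and the Casp8 window chr1:58802252-58802501, 5′ to 3′.
Cflar: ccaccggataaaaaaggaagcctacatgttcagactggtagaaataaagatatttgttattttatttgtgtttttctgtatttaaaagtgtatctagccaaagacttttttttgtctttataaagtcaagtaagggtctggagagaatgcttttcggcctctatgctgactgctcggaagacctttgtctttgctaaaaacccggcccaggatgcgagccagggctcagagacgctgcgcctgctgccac
Casp8: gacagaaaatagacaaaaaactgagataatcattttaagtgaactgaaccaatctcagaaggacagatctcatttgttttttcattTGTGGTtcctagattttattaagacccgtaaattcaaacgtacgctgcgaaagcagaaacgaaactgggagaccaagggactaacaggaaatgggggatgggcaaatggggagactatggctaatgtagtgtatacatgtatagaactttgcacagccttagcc
The match to TGTGGT began 164 bases before this Casp8 start, and the Cflar window held none on either strand. Among 32851 promoter windows of the same length 14% held one. The letters CTTTGAT or CTTTGAA, a core recognised by TCF-1 and its relatives, were in none of the 8 genes' windows on either strand, against 7.48% of all windows. The shorter CTTTGA was in 1 of the 8, Fadd, against 13.8%. The ETS letters CCGGAAG were in none of the 8, against 6.91%, and TATAAA was in the Cflar window, against 12.4%. The E-box CANNTG was in 5 of the 8, against 66.2%. These windows are short, and an absent match says only that the letters are not there. The Casp8 and Cflar windows were poor in G and C (39.6% and 42.8%), below the median of 52.4% over all windows, while the other 6 lay between 49.2% (Casp1) and 75.6% (Apaf1).

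Total counts were 23711513 to 41666797 in the WT libraries, 19589938 in KO 1 and 13673860 in KO 2. Genes with a count numbered 15788 to 16013 in the WT libraries, 13294 in KO 1 and 14384 in KO 2. Levels are given as CPM, each count scaled to a common library size by TMM factors. Tcf7 itself measured 2326, 2270, 2266 and 2094 CPM across WT 1 to 4, against 1133 CPM in KO 1 and 1022 CPM in KO 2. The KO libraries stood apart from each other, with a chi-square per degree of freedom of 104 against 3.37 to 23.1 between WT pairs, the 3 WT pairs with WT 4 being the highest at 15.9 or more. Of 10 DN3 markers, all were detected in every library and 6 fell in KO, where 16.5% of all tested genes fell. Their summed levels were 12166 to 13098 CPM in WT and 8269 and 8753 CPM in KO. Of 9 double-positive and mature T-cell markers, 8 rose, where 14.1% of all tested genes rose. Their sums were 26.1 to 40.2 CPM across WT against 812 CPM in KO 1 and 2489 CPM in KO 2. S1pr1 of this list (0.0966 to 0.345 CPM across WT) passed the filter on low counts through the KO libraries alone, so only a rise could be called. B-cell markers (10 genes) summed to 236 to 265 CPM across WT, mostly Ighm, against 544 CPM in KO 1 and 1115 CPM in KO 2. Ighm made up 522 CPM of the sum in KO 1 and 877 CPM in KO 2. Cd79b was at 42.4 to 50.8 CPM across WT, lower in KO 1 (10.8 CPM) and higher in KO 2 (62.5 CPM). Their defining genes Ms4a1 and Pax5 were at 0 in all WT libraries and KO 1 and at 36.0 and 7.54 CPM in KO 2, while Cd22 and Cd79a were at 0.211 CPM or less across WT, at 6.29 and 3.68 CPM in KO 1 and at 25.2 and 40.4 CPM in KO 2. Myeloid markers (10 genes) summed to 17.5 to 19.9 CPM across WT, nearly all Lyz2, against 5.48 CPM in KO 1 and 10.2 CPM in KO 2, with Cd14 and Elane at 0 throughout. Dendritic cell markers (8 genes) summed to 176 to 193 CPM across WT, nearly all Bst2, against 163 CPM in KO 1 and 628 CPM in KO 2, with Siglech at 0 throughout. In KO 2 this sum held 359 CPM of Cd74 and 108 CPM of H2-Aa, which were at 1.13 CPM or less across WT and at 1.94 and 0.051 CPM in KO 1, beside 161 CPM of Bst2. Natural killer markers (8 genes) summed to 258 to 302 CPM across WT against 1386 CPM in KO 1 and 1469 CPM in KO 2, mostly Gzma, with Ncr1 at 0 in both KO libraries. Erythroid markers (5 genes) summed to 3.41 to 12.7 CPM across WT against 2.56 CPM in KO 1 and 26.8 CPM in KO 2, and thymic epithelial markers (6 genes), nearly all Epcam, to 148 to 160 CPM across WT against 46.1 CPM in KO 1 and 53.1 CPM in KO 2, with Krt5 and Foxn1 at 0 throughout.

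Per kilobase of gene length, which allows levels of different genes to be compared, Casp2 was the highest of the 8 genes in WT, at 60.6 CPM per kb ± 3.04 (SD, n = 4). Casp6 followed at 48.2 ± 2.24 and Casp8 at 28.1 ± 0.548 CPM per kb. Apaf1 (12.7 ± 0.402) and Casp1 (10.2 ± 2.15) came next, and their WT libraries overlapped. Cflar (7.81 ± 0.630) and Fadd (7.09 ± 0.699) overlapped as well, and Casp9 was the lowest at 3.46 ± 0.225 CPM per kb. The other neighbours in this order did not overlap between WT libraries. Casp2 exceeded 89.0% of the 13294 tested genes in WT on this scale, and Casp9 exceeded 29.2%. In KO, Casp8 reached 62.7 and 55.2 CPM per kb, beside Casp2 at 62.3 and 66.7, and Casp1 became the lowest.

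**Figure D1:**
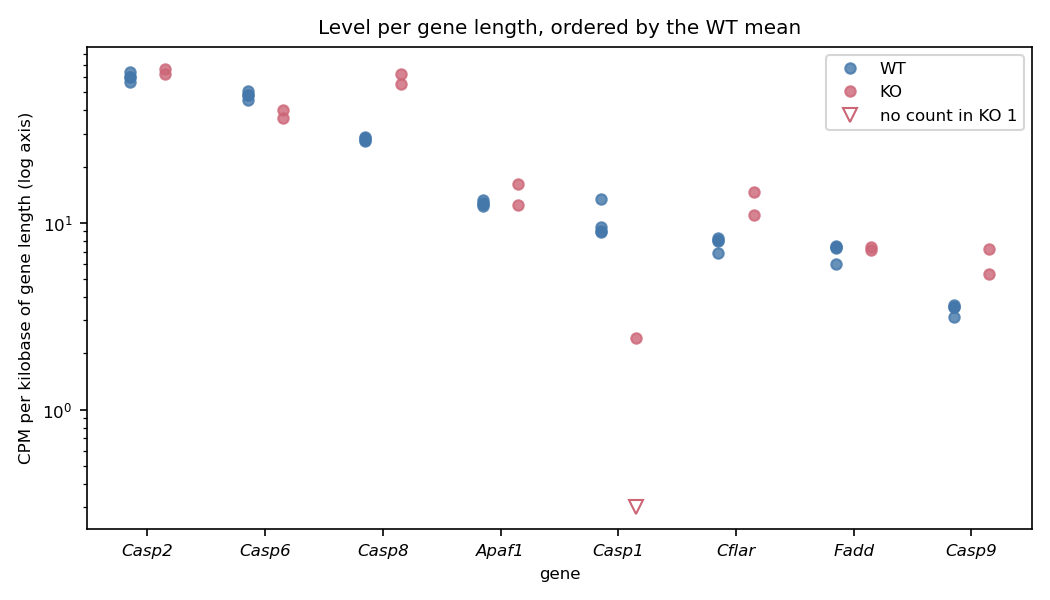
CPM per kilobase of gene length (log axis) of each of the 8 genes in the 4 WT and 2 KO libraries, ordered by the WT mean, each point 1 library. Casp8 in KO (62.7 and 55.2) reaches the level of Casp2, and the open triangle marks KO 1 without a Casp1 count, drawn at the foot of the axis.

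In KO against WT, 3 of the 8 genes rose (Casp8, Cflar and Casp9) and 1 fell (Casp6), while Casp1, Casp2, Fadd and Apaf1 did not pass. All 8 had passed the filter on low counts. Of all tested genes 30.7% were called, 14.1% higher and 16.5% lower, at an adjusted p under 0.05 by edgeR's quasi-likelihood test with sex as a term. The median log2 fold change of the 8 genes was 0.15, beside -0.04 over all tested genes. Both KO libraries lay above the WT range for the 3 genes that rose, where 22.9% of all tested genes did so, and below it for Casp6 and Casp1, where 28.6% did so (51.5% on either side). Leaving out WT 1, WT 2 or WT 3 gave 2 genes higher and 0 lower. Over all tested genes these fits called 881 to 896 higher and 784 to 847 lower. Without WT 4, KO 1 or KO 2, 1 KO mouse in effect stood alone, so calls in those fits are not counted here. In these bulk libraries fewer cells of a type and less RNA per cell cannot be told apart.

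**Figure D2:**
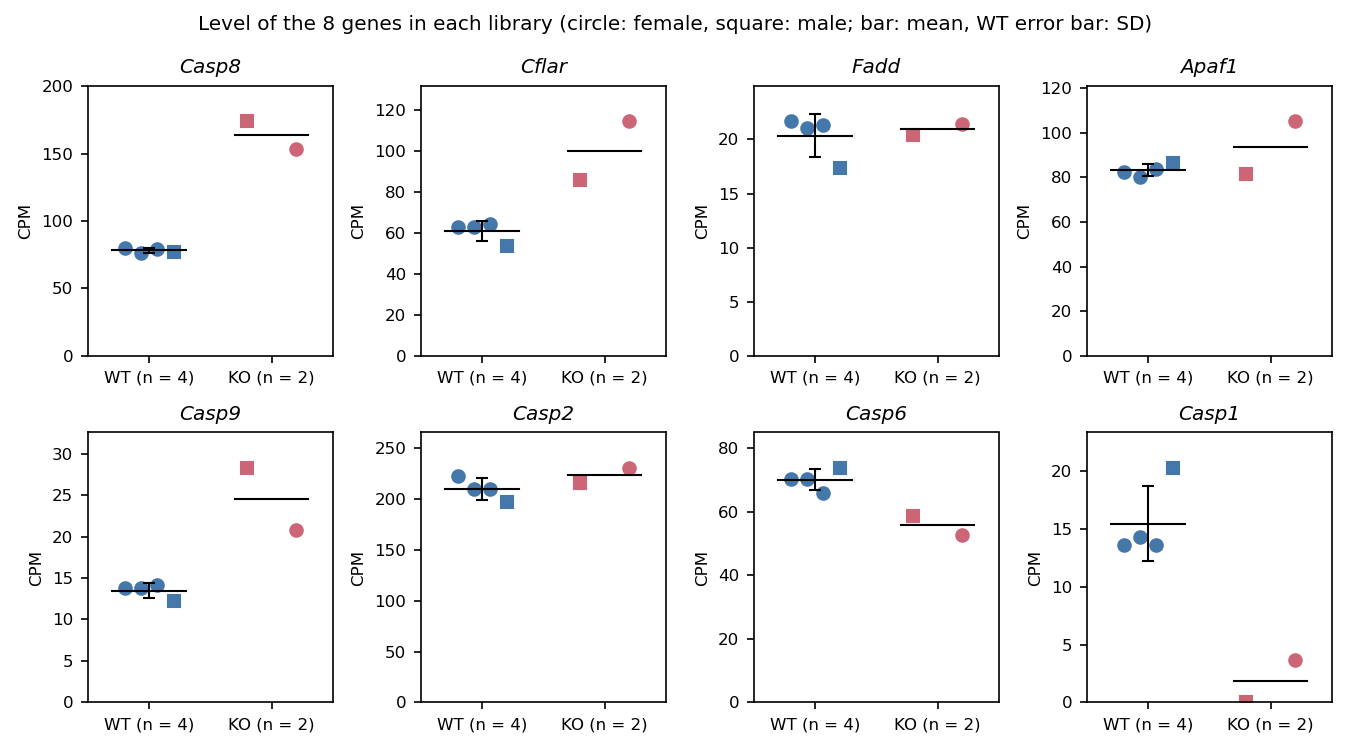
CPM of each gene in every library, WT blue and KO red, circles female and squares male mice, with the group mean as a bar and the SD over the 4 WT libraries as an error bar. Casp8, Cflar and Casp9 have both KO points above all WT points, and Casp6 and Casp1 have both below.

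Of the receptor complex, the protease and its regulator rose while the adaptor did not pass. Casp8, the protease that starts the extrinsic pathway, measured 79.7, 76.5, 79.2 and 77.3 CPM across WT 1 to 4, against 174 CPM in KO 1 and 153 CPM in KO 2. The WT libraries were close together and both KO libraries were far above them. It rose 2.07-fold (log2 1.05, SE 0.076, adjusted p = 0.000864 by edgeR). The difference was 1.16 without KO 2 and 0.98 without KO 1. The summed B-cell markers, mostly Ighm in KO 1, and the double-positive and mature T-cell markers were above WT in both KO libraries. Their part in the rise of Casp8 was not tested.

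Cflar, which restrains or tunes Casp8 on the receptor, measured 63.1, 62.8, 64.4 and 53.7 CPM across WT 1 to 4, against 85.8 CPM in KO 1 and 114 CPM in KO 2. WT 4 was the lowest WT library and KO 2 the highest of all. Cflar rose 1.72-fold (log2 0.78, SE 0.074, adjusted p = 0.00187 by edgeR). KO 2 was 1.33-fold above KO 1. The summed B-cell markers (544 CPM in KO 1 and 1115 CPM in KO 2) and the double-positive and mature T-cell markers (812 and 2489 CPM) were also higher in KO 2, and their part in this gap was not tested. Without KO 2 the log2 difference was 0.66, and without both KO 2 and the sex term it was 0.48.

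Fadd (Entrez 14082, chromosome 7, 144578323 to 144582441, minus strand), the adaptor that links receptor and protease, measured 21.7, 21.0, 21.3 and 17.4 CPM across WT 1 to 4, against 20.4 CPM in KO 1 and 21.4 CPM in KO 2. The KO libraries lay inside the WT range (log2 0.099, SE 0.11, adjusted p = 0.539 by edgeR). An antisense transcript, Faddos, shares 239 exon bases with it in GENCODE, and the library kit does not mark strand. Relative to Casp8 per kb, Fadd was at 0.263, 0.266, 0.260 and 0.217 in WT 1 to 4 and at 0.114 and 0.135 in KO 1 and KO 2. This ratio was 2.03-fold lower in KO and the groups did not overlap. The exact two-sided permutation test over libraries gave p = 0.0667, the smallest that its 15 assignments allow, and 0.1 after adjustment over 3 ratios. The ratio of Cflar to Casp8 was 0.281, 0.292, 0.289 and 0.247 in WT and 0.175 and 0.265 in KO, with KO 2 inside the WT range (exact permutation p = 0.133, adjusted p = 0.133), and without KO 1 its log2 difference shrank from -0.36 to -0.06.

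Of the apoptosome pair, the protease rose and the scaffold did not pass. Casp9 (Entrez 12371, chromosome 4, 141793612 to 141815978, plus strand), the initiator that Apaf1 activates, measured 13.8, 13.8, 14.1 and 12.2 CPM across WT 1 to 4, against 28.3 CPM in KO 1 and 20.8 CPM in KO 2. Both KO libraries were above every WT library, and KO 1 was 1.36-fold above KO 2. Casp9 rose 1.79-fold (log2 0.84, SE 0.17, adjusted p = 0.0202 by edgeR). The call was lost without WT 1, WT 2 or WT 3 (adjusted p = 0.0687, 0.0717 and 0.0674), with the difference at 0.86 to 0.87, and with limma-voom weights per genotype (adjusted p = 0.0746). In GENCODE, Casp9 shares 94 exon bases with each of Cela2a and Ctrc on the other strand. These are 2 pancreatic protease genes with 0 counts in all 6 libraries.

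Apaf1 (Entrez 11783, chromosome 10, 90989311 to 91082743, minus strand), the scaffold of the apoptosome, measured 82.7, 80.3, 83.8 and 86.6 CPM across WT 1 to 4, against 81.8 CPM in KO 1 and 105 CPM in KO 2. KO 1 lay inside the WT range and KO 2 above it (log2 0.18, SE 0.11, adjusted p = 0.269 by edgeR). KO 2 decided its direction, with a log2 difference of 0.37 without KO 1 and -0.095 without KO 2, each resting on 1 KO mouse. The part of the B-cell and mature T-cell markers, higher in KO 2 than in KO 1, was not tested. The ratio of Apaf1 to Casp9 per kb was 3.56, 3.46, 3.52 and 4.22 in WT and 1.72 and 3.00 in KO, without overlap, 1.62-fold lower in KO (exact permutation p = 0.0667, adjusted p = 0.1). Without KO 1 its log2 difference was -0.29 and without KO 2 it was -1.10.

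Casp2 and Casp6 were the most abundant of the 8 genes per length in WT. Casp2 (Entrez 12366, chromosome 6, 42264902 to 42282508, plus strand), the protease of the PIDDosome that responds to DNA damage and extra centrosomes, measured 223, 210, 210 and 197 CPM across WT 1 to 4, against 216 CPM in KO 1 and 231 CPM in KO 2. KO 1 lay inside the WT range and KO 2 just above it. It did not pass (log2 0.12, SE 0.065, adjusted p = 0.218 by edgeR). Without KO 1, with KO 2 standing alone, its log2 difference was also 0.12. Casp6 (Entrez 12368, chromosome 3, 129901415 to 129914112, plus strand), an executioner that cleaves lamin A, measured 70.2, 70.3, 65.9 and 73.9 CPM across WT 1 to 4, against 58.7 CPM in KO 1 and 52.7 CPM in KO 2. Both KO libraries were below every WT library. It fell by 0.36 on the log2 scale (1.29-fold, SE 0.074, adjusted p = 0.0196 by edgeR). The call was lost without WT 1, WT 2 or WT 3 (adjusted p = 0.0905, 0.0854 and 0.0724) and with limma-voom weights per genotype (0.384), with the difference between -0.34 and -0.38 in these fits.

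Casp1 (Entrez 12362, chromosome 9, 5298517 to 5307281, plus strand), the inflammasome protease, stood at 13.6, 14.3, 13.6 and 20.3 CPM in WT 1 to 4, at 0 in KO 1 and at 3.66 CPM in KO 2. In counts these were 563, 342, 354, 577, 0 and 49. Both KO libraries were below every WT library, and the KO libraries differed from each other. Against a floor of 3 counts, used where a library had no count, KO 1 was at least 101-fold below the WT mean. KO 2 was 4.22-fold below that mean. The floor covers counting error only, and KO 1 held fewer genes with a count (13294) than the less deep KO 2 (14384). The part of this in the absence of Casp1 counts was not tested. The gene did not pass over all 6 libraries (log2 -3.26, SE 1.17, adjusted p = 0.0916 by edgeR), a fitted value that depends on the empty library. Without KO 1 the log2 difference of Casp1 was -1.90. Without WT 4 it was -1.91, since the sex term then leaves the same contrast of KO 2 against the WT females. In these fits, and in the fit without KO 2, 1 KO mouse in effect stood alone, so their calls are not counted here. Of the 10 myeloid markers 2 were tested, and Lyz2 fell while Itgam rose (0.492 to 0.752 CPM across WT against 4.81 CPM in KO 1 and 6.87 CPM in KO 2). Lyz2 measured 16.8, 17.4, 16.8 and 18.4 CPM across WT 1 to 4 and 0.154 and 1.19 CPM in KO, while Csf1r, Cd14, Fcgr3 and Adgre1 were at 0.672 CPM or less in every library. A link between Casp1 and Lyz2 was not tested.

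The sexes were balanced only in part, so sex-matched differences of log2 CPM are given beside the pooled ones. In males, KO 1 against WT 4, they were 1.17 for Casp8, 0.68 for Cflar, 1.21 for Casp9, -0.33 for Casp6, 0.13 for Casp2, 0.23 for Fadd and -0.083 for Apaf1. In females, KO 2 against WT 1 to 3, they were 0.97 for Casp8, 0.85 for Cflar, 0.58 for Casp9, -0.39 for Casp6, 0.11 for Casp2, 0.0055 for Fadd, 0.36 for Apaf1 and -1.92 for Casp1. The 4 genes that passed thus had the same direction in both sexes. In the test of the interaction of genotype and sex, Casp1, Casp8, Casp9 and Apaf1 passed, 4 of 8 genes where 54.7% of all tested genes did. That test has 2 residual degrees of freedom, which come from the 3 WT females alone, and with 1 KO mouse per sex a sex effect and a difference between the KO mice cannot be told apart.

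By Euclidean distance of centred log2 CPM over the 6 libraries, the profiles nearest to Casp8 among 11915 tested genes were those of Cyba (distance 0.091) and Iqgap2 (0.11). Cyba, a subunit of the phagocyte oxidase, stood at 66.5 to 68.9 CPM across WT against 146 CPM in KO 1 and 128 CPM in KO 2. Nearest to Casp6 were Mfsd3 (0.060), Svil (0.063) and Zmynd19 (0.065), with Svil at 139 to 148 CPM in WT and 118 and 106 CPM in KO.

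The other death genes, 77 in 7 lists, moved in both directions. Of 69 tested, 16 rose, 14 fell and 39 did not pass, where 14.1% and 16.5% of all tested genes were called, and their median log2 fold change was -0.0057. Some of them, such as Lta and Naip6, passed the filter on low counts through 1 genotype alone. Leaving out WT 1, WT 2 or WT 3 gave 11 to 13 that rose and 8 that fell. Over all tested genes these fits called 881 to 896 higher and 784 to 847 lower. Casp4, the inflammatory caspase that lies 1.57 kb from Casp1, measured 0.797, 1.17, 1.11 and 2.14 CPM across WT 1 to 4, against 0 CPM in KO 1 and 0.299 CPM in KO 2 (155 counts in all 6 libraries) and did not pass (adjusted p = 0.0771 by edgeR). Casp12 and Casp14 had 0 counts in all libraries, which allows levels of up to 0.072 to 0.219 CPM (3 counts).

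Of 8 tested death receptors and ligands, 3 rose and 1 fell (median log2 0.63), where 14.1% of all tested genes rose and 16.5% fell. Fas, the receptor that recruits Fadd, rose from levels of 0.918 to 1.69 CPM across WT to 7.11 CPM in KO 1 and 11.4 CPM in KO 2 (6.71-fold, adjusted p = 0.00472 by edgeR). Lta, a ligand of this list, rose from 0.141 to 0.209 CPM across WT (19 counts in all) to 3.48 and 2.99 CPM. Lta passed the filter on low counts through the KO libraries alone, so only a rise could be called. Tnfsf10 (TRAIL) rose from 45.7 CPM ± 5.30 (SD, n = 4) to 68.2 and 72.8 CPM, a call that was lost with limma-voom weights per genotype, while Tnfrsf21 (DR6) fell from 26.6 ± 1.47 to 11.1 and 13.5 CPM, a call lost with the same weights.

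Of 15 receptor complex adaptors and kinases, 1 rose and 2 fell (median log2 0.00012), where 14.1% of all tested genes rose and 16.5% fell. Birc3, a ubiquitin ligase of these complexes, rose from 12.1 CPM ± 0.553 to 23.7 and 28.7 CPM (2.24-fold, adjusted p = 0.00202 by edgeR). Its close relative Birc2 fell from 70.9 ± 7.08 to 44.7 and 48.9 CPM, and Sharpin, of the linear ubiquitin complex, from 43.3 ± 1.60 to 35.2 and 33.9 CPM. The last 2 calls were each lost without WT 1, WT 2 or WT 3 and with limma-voom weights per genotype.

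Of 14 apoptosome partners and caspase inhibitors, 2 rose and 4 fell (median log2 -0.18), where 14.1% of all tested genes rose and 16.5% fell. Birc5 (survivin), which also serves in mitosis, rose from 59.2 CPM ± 6.81 to 150 and 90.7 CPM (adjusted p = 0.0346 by edgeR), and its call was lost without WT 1, WT 2 or WT 3. Prelid1, a mitochondrial lipid carrier, rose 1.36-fold, a call lost with limma-voom weights. Endog, a mitochondrial nuclease, fell from 11.4 ± 0.828 to 4.66 and 4.63 CPM, a call lost with limma-voom weights, and Diablo, which relieves caspases of their inhibitors, from 83.8 ± 0.899 to 67.5 and 59.0 CPM, a call lost without WT 1, WT 2 or WT 3 and with those weights.

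Of the PIDDosome pair that activates Casp2, Cradd rose from 5.29 CPM ± 0.398 to 9.06 and 10.1 CPM (1.84-fold, adjusted p = 0.0179 by edgeR, lost without WT 1, WT 2 or WT 3 and with limma-voom weights). Pidd1 ranged over 30.0 to 32.2 CPM across WT and measured 53.9 CPM in KO 1 and 24.7 CPM in KO 2, on opposite sides of the WT range, and did not pass (adjusted p = 0.681). Its log2 difference was -0.30 without KO 1 and 0.79 without KO 2, each resting on 1 KO mouse.

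Of 12 tested inflammasome genes, 3 rose and 6 fell (median log2 -0.90), where 14.1% of all tested genes rose and 16.5% fell. Nlrp1b, a sensor that activates Casp1, was at 2.05 to 2.99 CPM in WT and had no count in either KO library, at least 27.0-fold lower against 3 counts over both. Il18, a cytokine that Casp1 matures, was at 1.19 to 1.38 CPM in WT and had no KO count either, at least 14.1-fold lower. Both calls were lost with limma-voom weights per genotype. Naip6 and Naip2, sensors of bacterial proteins, rose from 5 and 4 WT counts in all to 114 and 15 counts in KO 1 and 103 and 111 counts in KO 2. Naip6 and Naip2 passed the filter on low counts through the KO libraries alone, and Nlrp1b and Il18 through the WT libraries alone. Naip5 (0.0767 to 0.211 CPM across WT, 21.3 and 14.9 CPM in KO) also passed it through the KO libraries alone. Nlrp1a (3.47 to 4.60 CPM across WT, 0.0512 and 0.299 CPM in KO) passed it through the WT libraries alone. Each of these genes could therefore be called only in the direction seen, so nothing is read from the counts of this list against the shares of all genes. Naip genes are near-identical copies, so reads may be split between them and their values are less certain.

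Of 15 caspase substrates and executioners, 5 rose and none fell (median log2 0.27), where 14.1% of all tested genes rose. Bid, the BCL2 family member that Casp8 cleaves to engage mitochondria, rose from 61.8, 57.8, 57.7 and 47.5 CPM in WT 1 to 4 to 111 and 99.8 CPM in KO (1.92-fold, adjusted p = 0.00522 by edgeR). Gsdme, a pore protein opened by executioner caspases, rose from 2.76 CPM ± 0.415 to 9.21 and 7.09 CPM, a call lost without WT 3 and with limma-voom weights. Lmnb1, a nuclear lamin, rose from 423 ± 28.7 to 847 and 629 CPM, a call lost without WT 2 or WT 3. Stk4, a kinase activated by caspase cleavage, averaged 351 ± 20.6 CPM across WT, against 402 CPM in KO 1 and 705 CPM in KO 2. Its rise of 1.64-fold was lost without WT 1, WT 2 or WT 3, without the sex term, and without KO 2 and the sex term (log2 0.18).

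**Figure D3:**
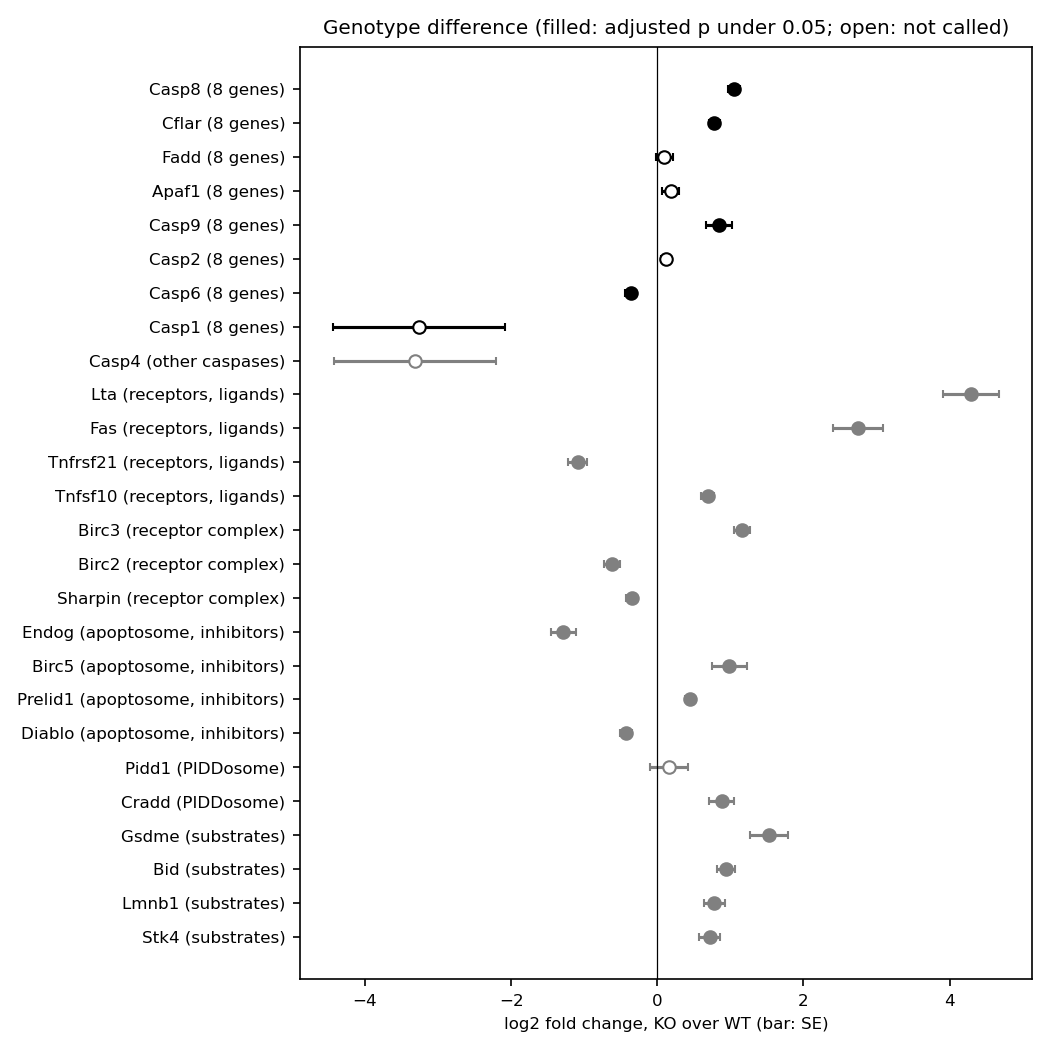
Log2 fold change of KO over WT with its SE for the 8 genes (black) and named genes of the other death lists except the inflammasome (grey), filled where the adjusted p was under 0.05. Casp8, Cflar and Casp9 lie to the right with Fas and Bid, and Casp6 lies to the left, while Casp1 and Casp4 have wide errors.

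**Figure D4:**
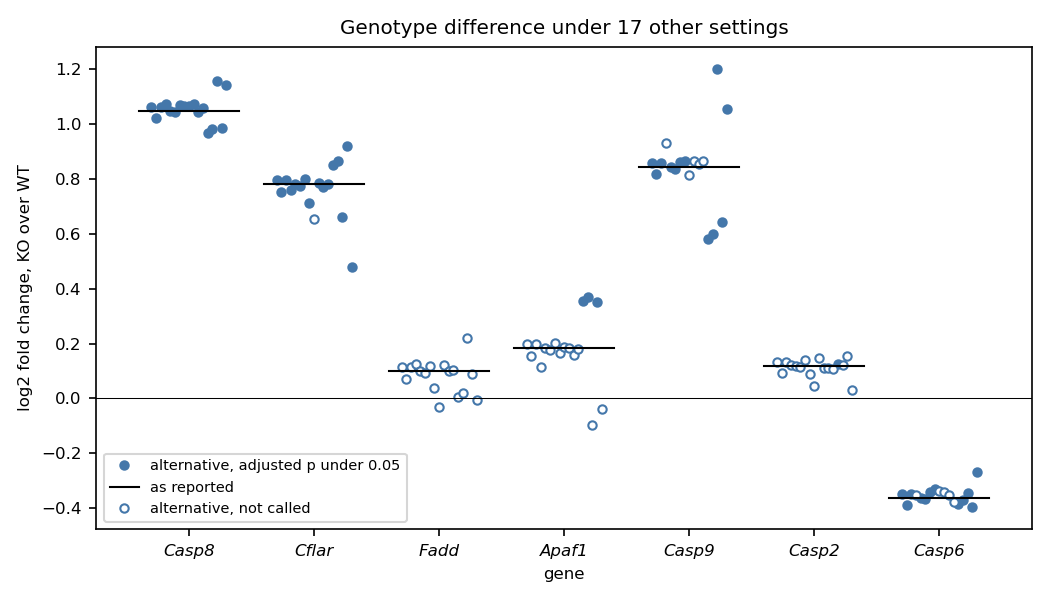
Log2 fold change of KO over WT for 7 of the 8 genes as reported (line) and under 17 other settings (points, filled where the adjusted p was under 0.05). Casp8 stays between 0.97 and 1.16 and passes in all 17, while Apaf1 and Fadd cross 0, and Casp1 is left out because its fitted values depend on a library without a count.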

How the data were processed

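RNA was measured in 6 libraries of sorted DN3 thymocytes, purified from lysed cells, amplified with a SMART-Seq v4 kit and sequenced as paired ends, per the labels' protocols. The authors deposited raw counts per Entrez gene with a gene length for each, made with featureCounts on mm10, per the submitters' processing notes. Aligner, tool versions and strand setting: not given in the sources used here. All 6 tables of single libraries held the same values as the table of the series. Symbols and coordinates came from RefSeq GRCm38.p6 by Entrez identifier (25275 matched, 1057 did not), exon overlaps from GENCODE M21 and promoter windows from RefSeq, with a window for all 8 genes.

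Tests used edgeR 4.0.16 under R 4.3.3. filterByExpr with a count minimum of 10 left 13294 genes, libraries were scaled by TMM, and a robust quasi-likelihood F-test compared KO with WT with sex as an additive term (3 residual degrees of freedom). p-values were adjusted by Benjamini-Hochberg over all tested genes. The SE is the log2 fold change divided by the square root of F. Depth put 3 counts at 0.072 to 0.219 CPM, and floors cover counting error only. Ratios of 2 genes used counts per kilobase. Alternatives were DESeq2 1.42.0, limma-voom (limma 3.58.1), other scalings, filters and models, and each library left out. 2 fits without the sex term and without 1 KO library were added after seeing the data, as were the neighbours within 200 kb. The tests were tested on simulated data.

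The members and lists were chosen with earlier results of these data known. Of 152 list entries, 1 matched no gene. The text names all 8 members, other caspases and the PIDDosome genes, up to 4 called genes per other list by size of change with at least 1 CPM in the higher group, and up to 3 nearest profiles of the member with the smallest p in each direction. Some genes that this rule selects are not reported here, though list counts include them. Single markers were named where they define a list or hold most of its sum. Lyz2, Itgam, Csf1r, Fcgr3, Cd22, Cd79a, Cd79b, Cd74 and H2-Aa were chosen after their values were seen.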

Additional observations from a re-analysis of the deposited data

Results flagged for a closer look

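In WT, 1 library lay far from the other 3 in 5 of 11 sets of values examined (8 genes and 3 ratios), by the gap to the nearest library over the whole range. Chance flags about 5% of such groups, and the 5 are not independent, since all concern WT 4, the only WT male. WT 4 was high for Casp1 (20.3 CPM, gap 0.893 of the range) and low for Cflar (53.7 CPM, 0.847) and Fadd (17.4 CPM, 0.846). It was high for the ratio of Apaf1 to Casp9 (4.22, 0.872) and low for that of Fadd to Casp8 (0.217, 0.889).

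The genotype effect differed between the sexes for 4 genes by the interaction test of edgeR, as the male minus the female log2 difference. For Casp8 it was 0.20 (SE 0.081, adjusted p = 0.0315), for Casp9 0.63 (SE 0.18, adjusted p = 0.00415) and for Apaf1 -0.44 (SE 0.090, adjusted p = 9.5e-05). For Casp1 the fitted value was -10.10, which rests on KO 1 having no count and is no measure of size. The sex effect and the difference between the 2 KO mice cannot be told apart, and 7274 of 13294 genes passed the same test.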

How the results depend on the processing

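Casp8 kept its direction in all 17 other settings (log2 0.97 to 1.16). So did Cflar (0.48 to 0.92), Casp9 (0.58 to 1.20) and Casp6 (-0.40 to -0.27). The fits without WT 4, KO 1 or KO 2 left 1 KO mouse in effect alone, so their calls are not counted here. In the remaining settings Casp8 kept its call (adjusted p at most 0.0275 by edgeR), and Cflar lost it only with the replicate block. Casp9 and Casp6 lost theirs with that block, with limma-voom weights per genotype and without WT 1, WT 2 or WT 3. Fadd turned to -0.030 with the replicate block and to -0.0071 without KO 2 and the sex term, and Apaf1 to -0.095 without KO 2 and to -0.039 without KO 2 and the sex term. Over libraries left out singly Apaf1 ranged from -0.095 to 0.37 and Pidd1 from -0.32 to 0.79. Pidd1 turned to -0.32 without WT 4, -0.30 without KO 1 and -0.31 without KO 1 and the sex term. RLE scaling, no scaling, DESeq2, edgeR without robust dispersion, no filter, a count minimum of 50 and no sex term left 3 of the 8 genes called higher and 1 lower.

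With limma-voom weights per genotype 975 genes were called higher and 482 lower, in place of 1878 and 2198, none of the 8 genes was called lower (0, with 2 called higher), and 2 of the other death genes were called lower in place of 14. With the replicate block in place of sex (1 residual degree of freedom), 413 genes were called higher and 335 lower, 1 and 0 of the 8 genes (Casp8 higher), and 2 and 1 of the other death genes. No pairing was read from the numbers, each sample being an individual mouse. Same-numbered libraries deviated together with a correlation of -0.11 (number 1) and 0.033 (number 2). With 2 KO libraries their deviations are exact opposites (0.11 for WT 1 and KO 2), so these correlations cannot decide whether the mice were paired.

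Leaving out each library gave 881 to 4321 genes called higher and 784 to 5152 lower, and 2 to 5 of the 8 genes higher and 0 to 2 lower. Among the other death genes it gave 11 to 29 higher and 8 to 29 lower. All counts rose without KO 1, KO 2 or WT 4, where 1 KO mouse in effect stood alone and was assumed to vary like WT, except the members called higher without KO 2 (3). Without KO 1 and the sex term, 3514 genes were called higher and 3664 lower, 25 of the other death genes higher and 2 of the 8 genes lower. Without KO 2 and the sex term, the values were 4020 and 4898 genes, 26 other death genes lower and 2 of the 8 genes lower. The log2 difference of the Cflar to Casp8 ratio ranged from -0.66 to -0.06 over libraries left out, of Apaf1 to Casp9 from -1.10 to -0.29 and of Fadd to Casp8 from -1.14 to -0.89, and gene length does not enter these differences. The cause of these shifts was not tested. The interaction test called 7218 genes without robust dispersion. Depth limits Casp4, Nlrp1b and Il18, where 3 counts in KO 2 correspond to 0.219 CPM. For Casp1 depth limits only the fold bound in KO 1, which had no count.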

Other observations

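The genes around each of the 8 were examined within 200 kb of its ends. Beside the counts that follow, 30.7% of all tested genes were called, 14.1% higher and 16.5% lower. Around Casp8, 5 of 7 neighbours were tested and Cflar alone was called. Trak2 on the far side of Casp8, a mitochondrial transport adaptor, averaged 125 CPM across WT against 109 CPM in KO 1 and 155 CPM in KO 2 (adjusted p = 0.534 by edgeR). Around Cflar, Casp8 and Fam126b were called higher among 6 tested neighbours, with Fam126b at 22.8 CPM in WT and 24.5 and 31.3 CPM in KO (log2 0.39, adjusted p = 0.0487 by edgeR). Ndufb3, a subunit of respiratory complex I, averaged 47.0 CPM across WT against 89.6 CPM in KO 1 and 53.1 CPM in KO 2 and did not pass (adjusted p = 0.109).

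Around Casp6, Pla2g12a, a secreted phospholipase, lay 5.59 kb away and fell from 107 CPM to 75.7 and 68.3 CPM (log2 -0.61, adjusted p = 0.00307 by edgeR), alone among 5 tested neighbours. Around Casp9, which rose, Plekhm2 (40.9 CPM in WT, 28.2 and 22.1 in KO) and Efhd2 (75.5 CPM in WT, 55.7 and 65.3 in KO) were both lower, with adjusted p = 0.0034 and 0.0407 by edgeR, of 4 tested. Around Casp2 and Apaf1, 0 of 5 and 0 of 4 tested neighbours were called, where 30.7% of all tested genes were. Around Fadd, Cttn (cortactin) was lower, averaging 3.18 CPM across WT against 0 CPM in KO 1 and 0.224 CPM in KO 2 (adjusted p = 0.0196 by edgeR). Cttn passed the filter on low counts through the WT libraries alone, so only a fall could be called.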
